A study of Homo sapiens with 4 samples.

Results

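The cytoplasmic ribosomal proteins are the proteins of the large and small subunits of the ribosome outside the mitochondrion. Their genes were taken from the deposited 2D table by biotype and symbol: protein-coding genes named RPL or RPS followed by a digit, together with RPLP0, RPLP1, RPLP2 and RPSA. This matched 96 symbols, from which the 10 RPS6K kinases, 7 paralogs with names of the RPL7L1 kind and RPS19BP1, a binding protein, were left out. The 78 remaining genes, of 30843 in the table, comprised 32 of the small subunit, 43 of the large subunit and 3 of the P-stalk, and they lie on 22 chromosomes. Genes entered the test where 2 or more samples held 10 normalized counts or more, which 77 of the 78 did. The exception was RPS10, with 7.11 and 6.06 normalized counts in RM+ samples and 7.06 and 6.69 in RM- samples.

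RNA came from A549 cells, an established line of human lung adenocarcinoma epithelium labelled as wild type, grown in 2D culture on well plates in medium with serum and harvested on day 4. In the RM+ group (2 samples), the air pressure of the sealed chamber alternated between slightly negative and atmospheric, which the study defines as respiratory motion (RM). The RM- group (2 samples) was cultured without it. The labels put 1 sample of each group in batch 1 and 1 in batch 2. The study describes independent repeats of its key experiments, and the labels do not say whether these samples of a group came from separate cultures. The p-values cover the variation among these 4 samples only, part of which may be technical.

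The ribosome translates mRNA into protein. Its small subunit decodes the message and its large subunit joins the amino acids, and each subunit is built in the nucleolus from ribosomal RNA and ribosomal proteins before export to the cytoplasm. Ribosomal protein mRNAs are among the most abundant of proliferating cells. In vertebrates they begin with a cytosine followed by a run of pyrimidines, the 5′ terminal oligopyrimidine (TOP) motif. Through this motif the kinase complex mTORC1 and the binding protein LARP1 control the translation and stability of these mRNAs, together with those of elongation factors and other parts of the translation machinery.

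The start sites show this feature. RefSeq (GRCh38.p14) listed a transcript start for 63 of the 78 genes. In 57 of these (90.5%), a C followed by at least 4 more C or T bases began within 10 bases of the start. Runs were read on the coding strand only. Such a run was present in 40.9% of the tested genes with a listed start and in 37.4% of all genes with a listed start. A run of at least 8 bases was present in 76.2% of the ribosomal protein genes and in 13.1% of the tested genes. For a gene with several listed starts, the longest run was taken throughout. The letters are a description of the start site, not a measured site of control. The windows below hold 10 bases before the start and 20 from it, 5′ to 3′, with the pyrimidine run in capitals. The first 4 belong to genes among those with the lowest ratio of RM+ to RM-, and the next 4 to genes with a ratio slightly above 1.
RPL26 (chr17:8383174-8383203, minus strand): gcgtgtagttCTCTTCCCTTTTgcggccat
RPL39 (chrX:119791611-119791640, minus strand): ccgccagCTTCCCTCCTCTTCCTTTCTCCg
RPL14 (chr3:40457329-40457358, plus strand): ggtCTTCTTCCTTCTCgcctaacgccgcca
RPS3 (chr11:75399508-75399537, plus strand): cgagccaCTTCCTTTCCTTTCagcggagcg
RPLP1 (chr15:69452808-69452837, plus strand): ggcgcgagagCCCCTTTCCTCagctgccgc
RPS19 (chr19:41860245-41860274, plus strand): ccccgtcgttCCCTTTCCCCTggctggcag
RPL36 (chr19:5690285-5690314, plus strand): cggcgccagCCCTTCCgccacggccgtctc
RPS28 (chr19:8321486-8321515, plus strand): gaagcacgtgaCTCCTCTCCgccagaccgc
All 8 windows hold such a run, as do 57 of the 63 ribosomal protein genes with a listed start. These chosen windows therefore cannot show whether its presence goes with the ratio.

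Values are read counts divided by the size factor of each sample (normalized counts), and fold changes are RM+ over RM- on the scale of log2(normalized count + 1). The RM+ libraries held 18754356 and 19009997 reads on genes, against 19228867 and 20412283 in the RM- libraries. All 8 of the epithelial and A549 markers had a mean of at least 10 normalized counts, while none of the fibroblast or endothelial markers and 1 of the immune markers did. Between any pair of samples the log2 levels of the 78 genes had a Pearson correlation of at least 0.996, across genes of the same libraries.

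Ribosomal protein mRNA took a smaller part of both RM+ libraries than of both RM- libraries. The 78 genes held 3.93% and 4.19% of reads in RM+ samples, against 4.34% and 4.48% in RM- samples. The means were 4.06% ± 0.19 in RM+ and 4.41% ± 0.10 in RM- (SD, n = 2 each), a difference of -0.35 percentage points. The groups did not overlap, and the difference was -0.41 points in batch 1 and -0.29 in batch 2. With 2 samples a group, an exact permutation test (two-sided) cannot give a p below 0.33, which is the value obtained. These are bulk samples, in which fewer cells of a type and less RNA per cell cannot be told apart.

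Mitochondrial genes took 4.56% and 2.58% of reads in RM+ samples and 5.36% and 3.69% in RM- samples. Among the reads outside mitochondrial genes, ribosomal protein genes held 4.11% and 4.30% in RM+ samples, against 4.58% and 4.65% in RM- samples. The ordering of the groups was thus the same with mitochondrial reads set aside. Large subunit genes held 2.08% and 2.22% of reads in RM+ samples, against 2.33% and 2.42% in RM- samples. Small subunit genes held 1.55% and 1.66% in RM+ samples, against 1.70% and 1.76% in RM- samples. The P-stalk genes held 0.290% and 0.304% in RM+ samples and 0.311% and 0.300% in RM- samples, and here the groups overlapped.

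**Figure D1:**
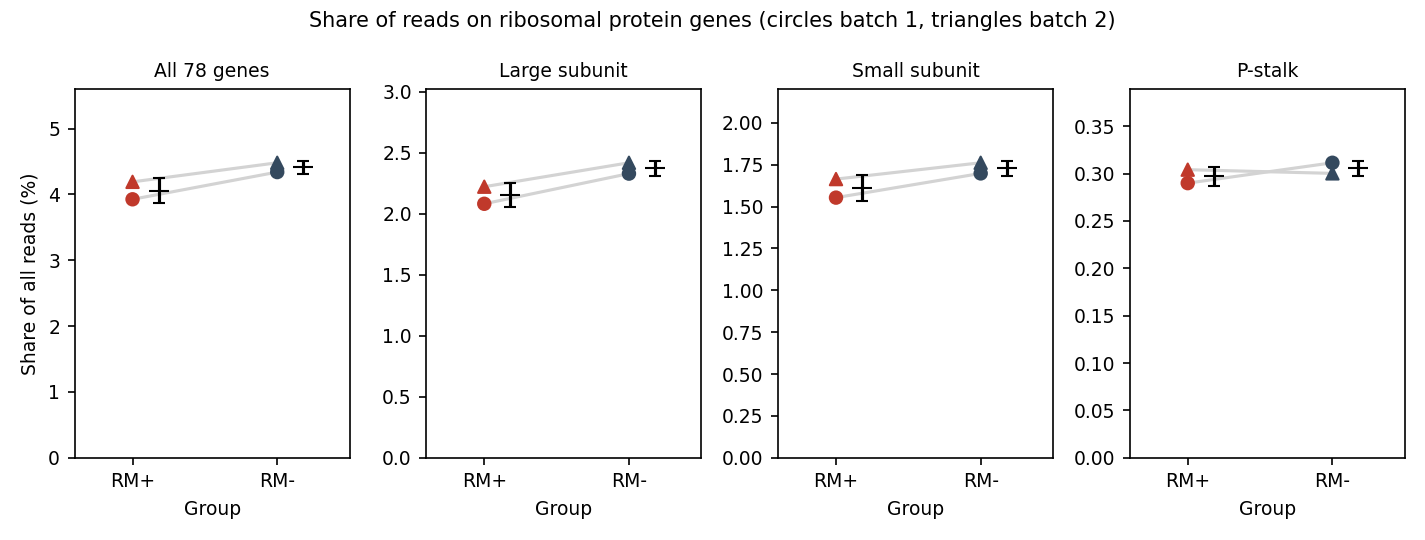
Share of all reads (percent, linear axis from 0) on the 78 ribosomal protein genes and on those of each subunit and the P-stalk. Symbols are samples (circles batch 1, triangles batch 2), grey lines join samples of 1 batch, and black marks give the mean and SD of 2 samples. In the first panel RM+ samples lie at 3.93% and 4.19% and RM- samples at 4.34% and 4.48%.

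The levels of single genes spanned a wide range. In RM+ samples the median ribosomal protein gene had 8043 and 8655 normalized counts, against 8525 and 9362 in RM- samples. Means over all 4 samples reached 10000 normalized counts for 33 of the 78 genes and stayed under 1000 for 6. Longer mRNAs give more fragments, and levels were divided by the coding length, which leaves out the untranslated regions. The correction for length is therefore partial. Per kilobase (kb) of coding length, RPL41 had the highest level at 199323 normalized counts per kb. It encodes the shortest of the proteins, and its coding length of 75 bases makes this figure uncertain. RPL13A, of the large subunit, followed with 60462 and RPLP1, of the P-stalk, with 53921 normalized counts per kb. The lowest were RPS10, RPL17 and RPL36A, with 13.6, 28.4 and 253.6 normalized counts per kb. RPS10, RPL17 and RPL36A each share their span with a readthrough gene on the same strand (RPS10-NUDT3, RPL17-C18orf32 and RPL36A-HNRNPH2), and how the counting treated reads of the shared exons was not tested.

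Most ribosomal protein genes had slightly lower levels in RM+. Of the 77 tested, 72 (93.5%) had a log2 fold change below 0, against 50.7% of the 17632 genes tested. Their median was -0.15, a change of -9.63% in RM+ relative to RM-, against 0.00 for all genes. The middle 80% of the 77 lay between -0.26 and -0.02, and that of all genes between -0.30 and 0.34. In 48 of the 77 both RM+ samples were below both RM- samples, and in 0 were both above, where each of these patterns was found in 22.2% of all genes. The other 29 overlapped.

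Single genes rarely passed the test. With limma and Benjamini-Hochberg adjustment over all genes, 1 of the 77 was lower in RM+ at an adjusted p under 0.05 and 0 were higher, against 0.794% lower and 1.46% higher of all genes. At an unadjusted p under 0.05, 19 were lower and 0 higher, against 6.8% and 7.68% of all genes. edgeR called 1 lower, against 0.72% of all genes, and DESeq2 called 5 lower, against 0.996% of the 12846 genes that it gave an adjusted p. Taking batch into account changed the counts. With batch as a block, limma called 24 of the 77 lower and 0 higher, against 4.63% lower and 5.1% higher of all genes, and edgeR with the same block called 25 lower, 24 of them shared, against 4.76% of all genes. That fit leaves 1 residual degree of freedom, and its p-values take each gene's spread from a trend with level fitted to the whole table. Dropping a sample leaves a group with 1, whose own variation is then unknown and is taken to equal that of the other group. Without the block, the count was 0 without RM- replicate 2, 3 without RM+ replicate 2 and 4 without RM- replicate 1. The median stayed below 0 with any 1 sample left out, between -0.20 and -0.09.

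**Figure D2:**
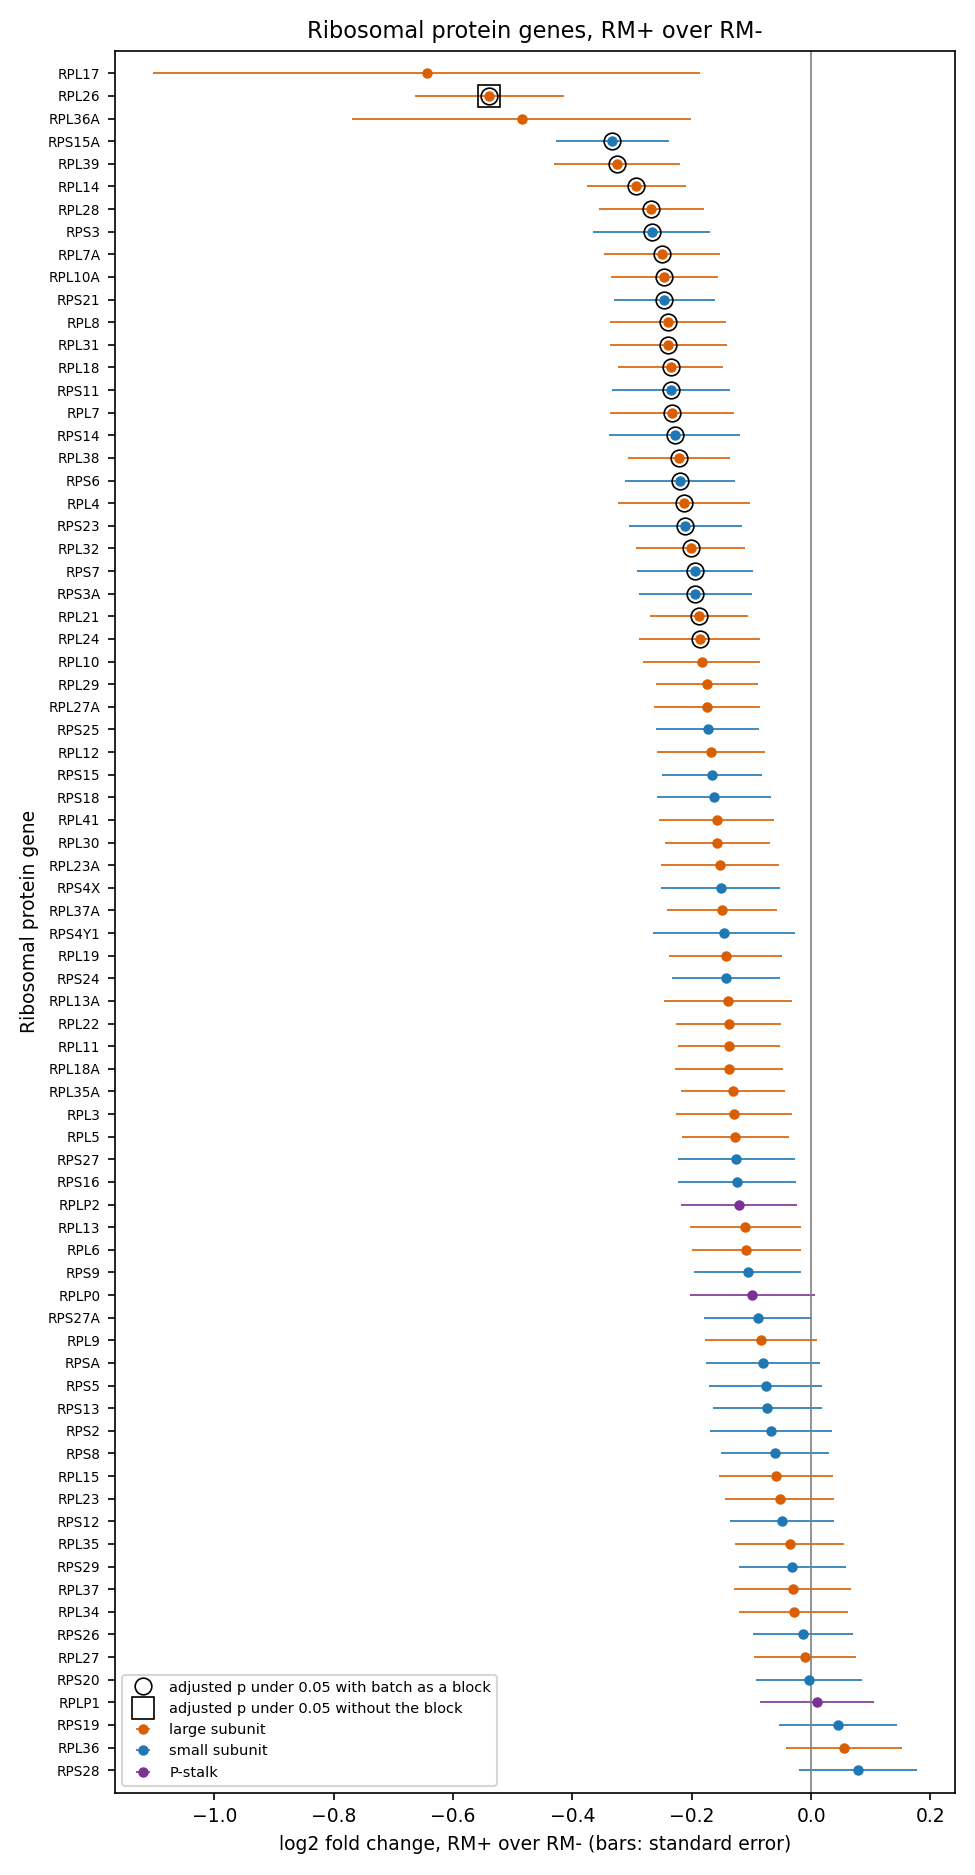
Log2 fold change (RM+ over RM-, horizontal axis) of 76 of the 77 tested ribosomal protein genes, sorted, with bars for the standard error of the fit and colours for the subunit. Black circles mark the 24 genes past an adjusted p of 0.05 with batch as a block and the square marks RPL26, past it without the block. All but 4 of the genes drawn lie below 0.

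RPL26 was the gene past the threshold. Its protein lies near the exit of the peptide tunnel and is known to bind the mRNA of p53 and aid its translation. RPL26 had 392.2 and 397.8 normalized counts in RM+ samples, against 505.4 and 652.9 in RM- samples. The groups did not overlap, and the RM- samples were the more spread. The log2 fold change was -0.54 ± 0.12 (SE; limma, adjusted p = 0.0304), a change of -31.2% in RM+ relative to RM-. It was -0.37 in batch 1 and -0.71 in batch 2. With batch as a block, the adjusted p was 8.56e-06. Without RM- replicate 2, the log2 fold change was -0.35 and the adjusted p 0.261, and over 16 alternatives the adjusted p lay between 7.89e-06 and 0.496. RPL26 (GRCh38, chr17:8377516-8383213, minus strand) shares its span with AC135178.2, a coding gene of the same strand, and 87.7% of the 31-base words of its coding sequence recur in other annotated transcripts.

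RPL39 and RPS15A came after RPL17, RPL26 and RPL36A in the order of fold change, with larger counts. RPL39, one of the smallest proteins of the large subunit, lines the exit tunnel. It had 4352 and 5066 normalized counts in RM+ samples, against 5270 and 6573 in RM- samples. RM+ was lower within each batch, by a log2 difference of -0.28 in batch 1 and -0.38 in batch 2, while batch 2 was above batch 1 in both groups. Its log2 fold change was -0.33 ± 0.11 (SE; limma, adjusted p = 0.143, and 2.29e-05 with the block). RPS15A, of the small subunit, had 1572 and 1820 normalized counts in RM+ samples, against 2025 and 2242 in RM- samples. Its log2 fold change was -0.33 ± 0.09 (SE; limma, adjusted p = 0.0834, and 0.000136 with the block). Without the block and with 1 sample left out, the adjusted p (limma) of RPL39 was 0.469 without RM+ replicate 1, 0.0240 without RM+ replicate 2, 0.00195 without RM- replicate 1 and 0.616 without RM- replicate 2. For RPS15A it was 0.416, 0.0192, 0.0158 and 0.303 in the same order. Whether either gene passed thus depended on which sample was left out.

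RPL14, RPL28, RPS3 and RPL8 are given because DESeq2 called them besides RPL26, which was seen before they were chosen. RPL14 had 5000 and 4929 normalized counts in RM+ samples, against 5934 and 6235 in RM- samples (log2 fold change -0.29; limma, adjusted p = 0.0837, and 0.000201 with the block). RPL28 had 10203 and 10137 in RM+ samples, against 12577 and 11917 in RM- samples (log2 fold change -0.27; limma, adjusted p = 0.150, and 0.000846 with the block). RPS3, which stands at the mRNA entry of the small subunit, had 15013 and 15541 in RM+ samples, against 17188 and 19660 in RM- samples (log2 fold change -0.27; limma, adjusted p = 0.203, and 0.00106 with the block). RPL8 had 19809 and 20460 in RM+ samples, against 23156 and 24405 in RM- samples (log2 fold change -0.24; limma, adjusted p = 0.251, and 0.00533 with the block). In all 4 both RM+ samples were below both RM- samples, a pattern found in 22.2% of all genes. They were chosen from a test on these same samples, so this adds no support.

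**Figure D3:**
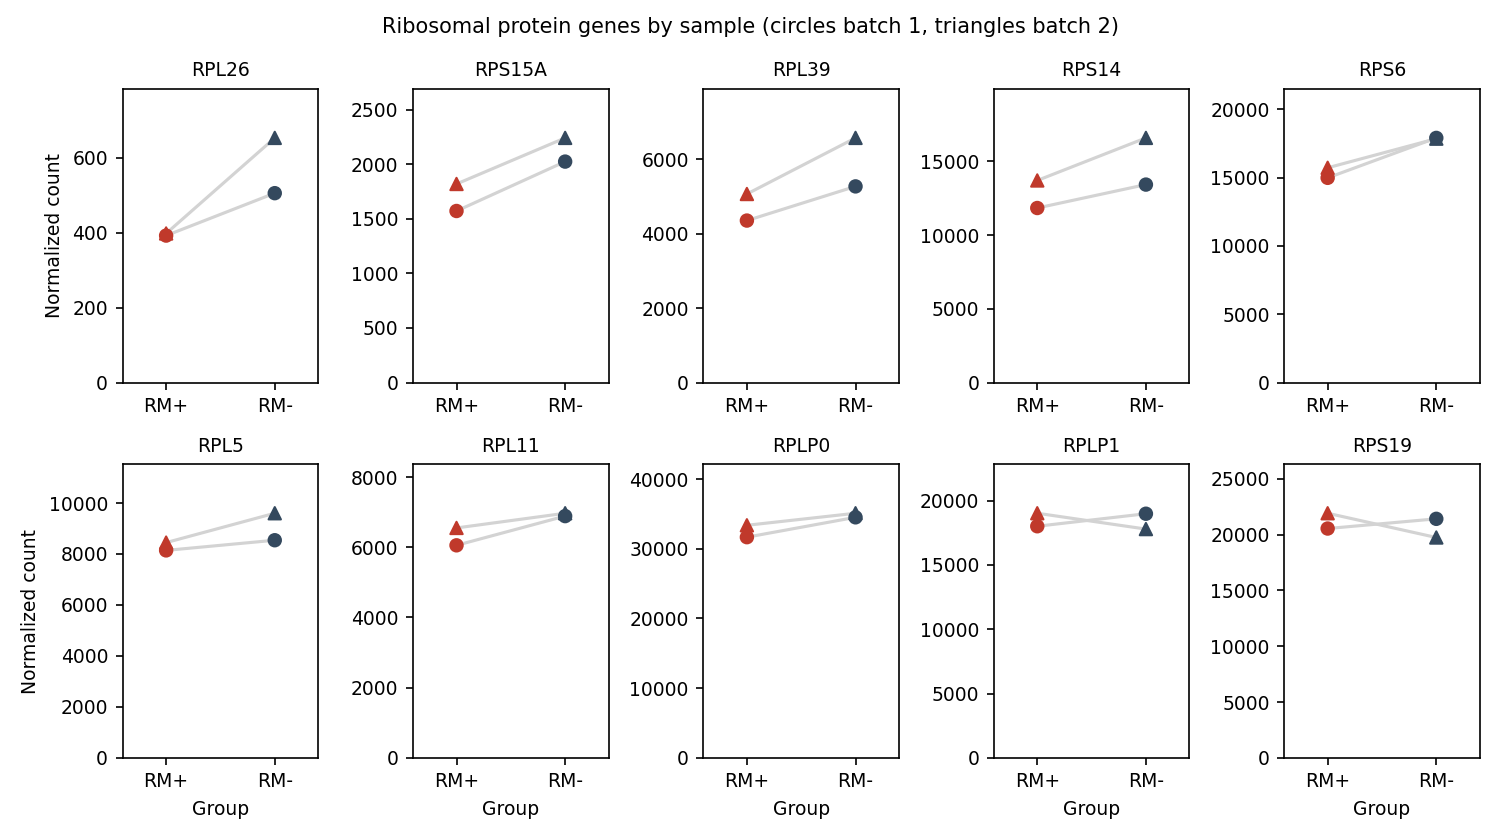
Normalized counts (linear axes from 0) of 10 ribosomal protein genes in RM+ and RM- samples. Circles are batch 1, triangles batch 2, and grey lines join samples of 1 batch. RPL26 lies at 392.2 and 397.8 in RM+ and 505.4 and 652.9 in RM-, while RPLP1 and RPS19 overlap between the groups.

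In the small subunit 28 of the 31 tested genes had a log2 fold change below 0, with a median of -0.13. limma and edgeR called 0 lower without the block and DESeq2 called 1, while 6 were lower and 0 higher by limma at an unadjusted p under 0.05. With the block 9 were lower and 0 higher. Of all genes, limma called 0.794% lower without the block and edgeR 0.72%. DESeq2 called 0.996% lower of those it gave an adjusted p. At an unadjusted p under 0.05 (limma), 6.8% of all genes were lower and 7.68% higher. With the block these shares were 4.63% and 5.1%. RPS6, the substrate of the S6 kinases that act downstream of mTORC1, had 14983 and 15719 normalized counts in RM+ samples, against 17906 and 17850 in RM- samples. Its groups did not overlap, and its log2 fold change was -0.22 ± 0.09 (SE; limma, adjusted p = 0.272, and 0.0110 with the block). RPS14, whose loss of 1 copy is tied to the 5q- syndrome, had 11830 and 13697 in RM+ samples, against 13419 and 16583 in RM- samples. Batch 2 was high in both groups and the groups overlapped, but RM+ was lower within each batch (log2 fold change -0.23 ± 0.11, SE; limma, adjusted p = 0.354, and 0.00696 with the block).

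Other genes of the small subunit differed less. RPSA, also known as the laminin receptor, had 18578 and 19820 normalized counts in RM+ samples, against 20348 and 20255 in RM- samples (log2 fold change -0.08; limma, adjusted p = 0.770). RPS26, which contacts mRNA at the exit channel, had 3244 and 3498 in RM+ samples and 3494 and 3310 in RM- samples (log2 fold change -0.01; limma, adjusted p = 0.970). RPS27, a zinc finger protein, had 5249 and 6485 in RM+ samples and 6349 and 6379 in RM- samples (log2 fold change -0.13; limma, adjusted p = 0.621). For RPS26 and RPS27 the groups overlapped. RPS4Y1 had a log2 fold change of -0.15, and it was among the genes whose batches differed most, with 0.06 in batch 1 and -0.35 in batch 2.

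In the large subunit 42 of the 43 genes had a log2 fold change below 0, with a median of -0.16. RPL26 passed the test without the block. At an unadjusted p under 0.05, 13 were lower and 0 higher, against 6.8% lower of all genes. With the block 15 were lower and 0 higher, against 4.63% lower of all genes. RPL5 and RPL11 bind the 5S rRNA, and when ribosome assembly is disturbed this complex inhibits MDM2 and stabilises p53. RPL5 had 8141 and 8447 normalized counts in RM+ samples, against 8540 and 9599 in RM- samples (log2 fold change -0.13; limma, adjusted p = 0.579, and 0.220 with the block). RPL11 had 6056 and 6551 in RM+ samples, against 6888 and 6970 in RM- samples (log2 fold change -0.14; limma, adjusted p = 0.501, and 0.172 with the block). In both the RM+ samples were below both RM- samples, as in 48 of the 77 genes and in 22.2% of all genes. Neither gene passed a test.

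RPL13A, RPL41 and RPL22, of the large subunit, lay near the median. RPL13A, which can leave the ribosome to join the GAIT complex that silences inflammatory mRNAs, had 33712 and 36395 normalized counts in RM+ samples, against 38642 and 38536 in RM- samples (log2 fold change -0.14; limma, adjusted p = 0.612). RPL41 had 13208 and 15084 in RM+ samples, against 15619 and 15886 in RM- samples (log2 fold change -0.16; limma, adjusted p = 0.492). RPL22, which also binds RNA of Epstein-Barr virus, had 1814 and 1786 in RM+ samples, against 1876 and 2092 in RM- samples (log2 fold change -0.14; limma, adjusted p = 0.514). In all 3, as in 48 of the 77 genes and 22.2% of all genes, both RM+ samples were below both RM- samples. None passed the test with or without the block.

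The P-stalk, formed by RPLP0 with RPLP1 and RPLP2, recruits the elongation factors to the large subunit. RPLP0 had 31666 and 33371 normalized counts in RM+ samples, against 34514 and 35099 in RM- samples (log2 fold change -0.10; limma, adjusted p = 0.741). RPLP1 had 18000 and 19010 in RM+ samples and 18973 and 17780 in RM- samples (log2 fold change 0.01; limma, adjusted p = 0.979). RPLP2 had 5576 and 5980 in RM+ samples and 6919 and 5698 in RM- samples (log2 fold change -0.12; limma, adjusted p = 0.634). RPLP1 and RPLP2 overlapped between the groups. None of the 3 passed limma's test with or without the block, nor at an unadjusted p under 0.05, nor by edgeR or DESeq2.

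Of the 77 genes, 5 had a log2 fold change above 0, RPLP1 among them, and none of the 5 passed the test. RPS19, the gene most often mutated in Diamond-Blackfan anaemia, had 20538 and 21907 normalized counts in RM+ samples and 21407 and 19735 in RM- samples (log2 fold change 0.05). RPL36 had 2006 and 2165 in RM+ samples and 2206 and 1824 in RM- samples (log2 fold change 0.05). RPS28 had 1615 and 1758 in RM+ samples and 1749 and 1455 in RM- samples (log2 fold change 0.08). RPS19, RPL36 and RPS28 were each lower in RM+ in batch 1 and higher in batch 2.

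The lowest genes in the order included several with overlapping annotation. In GENCODE 29, 8 of the 78 share their span with a coding gene of the same strand, among them RPL17, RPL22, RPL26, RPL36, RPL36A, RPS10 and RPS15A. RPL17 had the lowest fold change, with 15.2 and 9.09 normalized counts in RM+ samples, against 22.2 and 16.3 in RM- samples (log2 fold change -0.64 ± 0.46, SE; limma, adjusted p = 0.580). RPL36A had 86.4 and 48.5 in RM+ samples, against 117.0 and 70.7 in RM- samples (log2 fold change -0.49 ± 0.28, SE; limma, adjusted p = 0.472). Among the 70 genes with no such partner, 67 had a log2 fold change below 0, the median was -0.14, and fold changes lay between -0.33 and 0.08. Without the block 0 of these 70 passed the test. At an unadjusted p under 0.05, 17 were lower and 0 higher, against 6.8% lower of all genes. With the block 22 were lower and 0 higher, against 4.63% lower of all genes. Opposite-strand genes with at least 10 normalized counts overlapped 28 members, and 26 of these 28 had a log2 fold change below 0. No source used here gives the strand setting of the counting.

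Mutations in 19 of the 78 genes are known from Diamond-Blackfan anaemia, an inherited failure of red cell production. Of the 18 tested, 15 had a log2 fold change below 0 with a median of -0.13, and RPL26 passed the test. With the block RPL26, RPS15A, RPL18, RPL31 and RPS7 were lower, against 4.63% of all genes. RPL31 had 6769 and 7619 normalized counts in RM+ samples, against 7803 and 9214 in RM- samples (log2 fold change -0.24; limma, adjusted p = 0.257, and 0.00374 with the block). RPL18 had 10659 and 10393 in RM+ samples, against 12726 and 12065 in RM- samples (log2 fold change -0.24; limma, adjusted p = 0.215, and 0.00470 with the block). The share of this list below 0 was 83.3%, against 93.5% of all ribosomal protein genes, and the difference was not tested.

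The 2 batches were compared gene by gene. In batch 1, 73 of the 77 genes were lower in RM+, with a median log2 difference of -0.18, and in batch 2, 59 were lower, with a median of -0.14. In both batches 56 were lower. Among all genes 50.2% were lower in batch 1, 50.8% in batch 2 and 31.9% in both. The within-batch differences had a Pearson correlation of 0.461 across the 77 genes, and of 0.262 across all 17632. These describe genes of the same 4 libraries, which are not independent. Batch 2 was itself above batch 1 in 63 of the 77 genes, by a median of 0.08 on the log2 scale, against 54.0% of all genes. With adjustment over all genes, limma called 3 higher in batch 2 (RPL39, RPS14 and RPL24, of log2 fold changes 0.27, 0.26 and 0.22) and 2 lower, among them RPL36A (-0.77), against 0.34% and 1.75% of all genes.

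**Figure D4:**
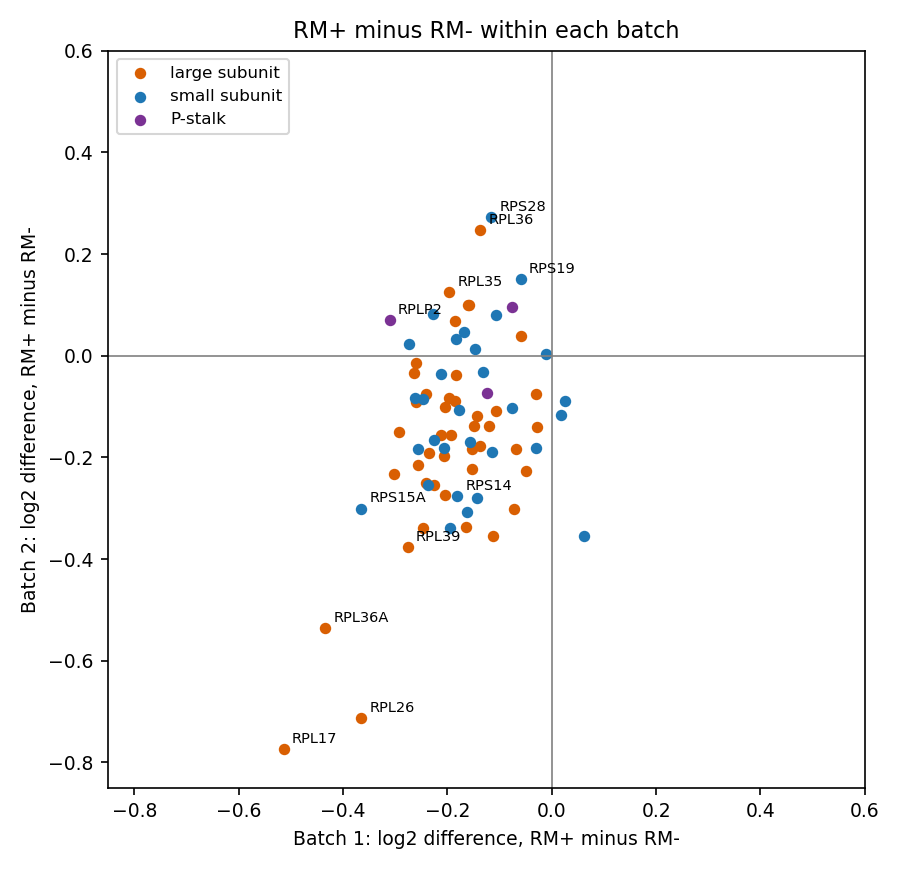
Log2 difference, RM+ minus RM-, in batch 1 (horizontal) and batch 2 (vertical) for 76 of the 77 tested ribosomal protein genes, coloured by subunit. The lower left quadrant holds the 56 genes that were lower in RM+ in both batches.

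The paralogs that the choice of members left out are close relatives of ribosomal protein genes. Of 7 tested, 4 had a log2 fold change below 0, and the median was -0.01. limma called none without the block, with 1 lower and 1 higher at an unadjusted p under 0.05, and edgeR called 0 lower. Of all genes, 6.8% were lower and 7.68% higher at an unadjusted p under 0.05. With the block 1 paralog was lower and 1 higher, against 4.63% and 5.1% of all genes. RPS27L, which p53 is known to activate, had 2919 and 3215 normalized counts in RM+ samples, against 2635 and 2504 in RM- samples. The groups did not overlap, and the log2 fold change was 0.25 ± 0.09 (SE; limma, adjusted p = 0.162, and 0.00388 with the block). RPL26L1 had 606.6 and 625.0 in RM+ samples, against 530.6 and 547.8 in RM- samples (log2 fold change 0.19 ± 0.10, SE; limma, adjusted p = 0.418, and 0.219 with the block). RPL22L1 had 672.7 and 691.6 in RM+ samples, against 751.6 and 890.0 in RM- samples (log2 fold change -0.26 ± 0.10, SE; limma, adjusted p = 0.245, and 0.0355 with the block). RPL39L, RPL7L1 and RPL36AL lay between -0.03 and 0.01, and RPL3L, at a mean of 8.11 in RM+ and 10.4 in RM- samples, was near the limit of counting.

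The start windows of RPS27L, RPL26L1 and RPL22L1, chosen after their values were seen, are set beside those of RPS27 and RPL22. Capitals again mark the run.
RPS27 (chr1:153990752-153990781, plus strand): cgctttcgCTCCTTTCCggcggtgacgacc
RPS27L (chr15:63157458-63157487, minus strand): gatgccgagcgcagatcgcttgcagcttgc
RPL26L1 (chr5:172958870-172958899, plus strand): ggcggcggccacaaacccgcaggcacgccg
RPL22 (chr1:6199576-6199605, minus strand): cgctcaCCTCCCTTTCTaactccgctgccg
RPL22L1 (chr3:170870176-170870205, minus strand): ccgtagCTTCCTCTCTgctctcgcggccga
RPS27L and RPL26L1 had no run of at least 5 bases at the listed starts, whereas RPL22L1, with a value below 0, had 1 of 10 bases. Of the 6 genes in the paralog list with a listed start, 2 had such a run. The windows shown were picked by value, so they do not show whether a run goes with direction. Among the ribosomal protein genes themselves, the 56 tested with a run had a median log2 fold change of -0.16 and the 6 tested without had one of -0.08, all 6 of them below 0. Genes with and without a run were thus mostly below 0. Across the 77 genes, the log2 fold change had a Spearman correlation of -0.01 with the mean level, -0.17 with the coding length and -0.06 with the share of 31-base words found elsewhere.

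FAU encodes a ribosomal protein fused to a ubiquitin-like protein, and RACK1 is a scaffold bound to the small subunit. Neither matches the naming rule of the 78. RACK1 had 21216 and 22602 normalized counts in RM+ samples, against 24265 and 25517 in RM- samples (log2 fold change -0.18; limma, adjusted p = 0.419, and 0.0510 with the block). FAU had 3073 and 3222 in RM+ samples, against 3335 and 3223 in RM- samples (log2 fold change -0.06). limma called neither of them, with or without the block, and edgeR called RACK1 with the block.

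Other genes listed as having TOP mRNAs, chiefly elongation factors and initiation factor subunits, lay in the same range. Of the 18 with a listed start, 16 had a run of at least 5 bases and 9 a run of at least 8. Of 23 tested, 22 had a log2 fold change below 0, with a median of -0.15, against -0.15 for the ribosomal protein genes and 0.00 for all genes. limma called 1 lower and 0 higher without the block, against 0.794% and 1.46% of all genes, and 9 lower and 0 higher with it, against 4.63% and 5.1%. EEF1A1, which brings aminoacyl-tRNA to the ribosome, had 143434 and 156543 normalized counts in RM+ samples, against 162096 and 184312 in RM- samples (log2 fold change -0.21; limma, adjusted p = 0.593, and 0.0885 with the block). Its start window was of the same kind.
EEF1A1 (chr6:73521013-73521042, minus strand): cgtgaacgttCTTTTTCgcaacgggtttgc

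EIF4A2, an RNA helicase of translation initiation, was the gene of this list past the threshold. It had 2841 and 2483 normalized counts in RM+ samples, against 3671 and 3727 in RM- samples, without overlap. The log2 fold change was -0.48 ± 0.09 (SE; limma, adjusted p = 0.00738, 0.0586 without RM+ replicate 2, and 1.87e-10 to 0.395 over 16 alternatives). EIF4B, a cofactor of the eIF4A helicases, had 12916 and 13766 in RM+ samples, against 15418 and 18470 in RM- samples (log2 fold change -0.34; limma, adjusted p = 0.106, and 8.02e-06 with the block). GAS5, a host RNA of small nucleolar RNAs, had 1208 and 986.5 in RM+ samples, against 1473 and 1402 in RM- samples (log2 fold change -0.40; limma, adjusted p = 0.0503, and 1.77e-05 with the block). EIF3E, a subunit of initiation factor eIF3, had 5468 and 5994 in RM+ samples, against 6722 and 6966 in RM- samples (log2 fold change -0.26; limma, adjusted p = 0.159, and 0.00155 with the block).

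**Figure D5:**
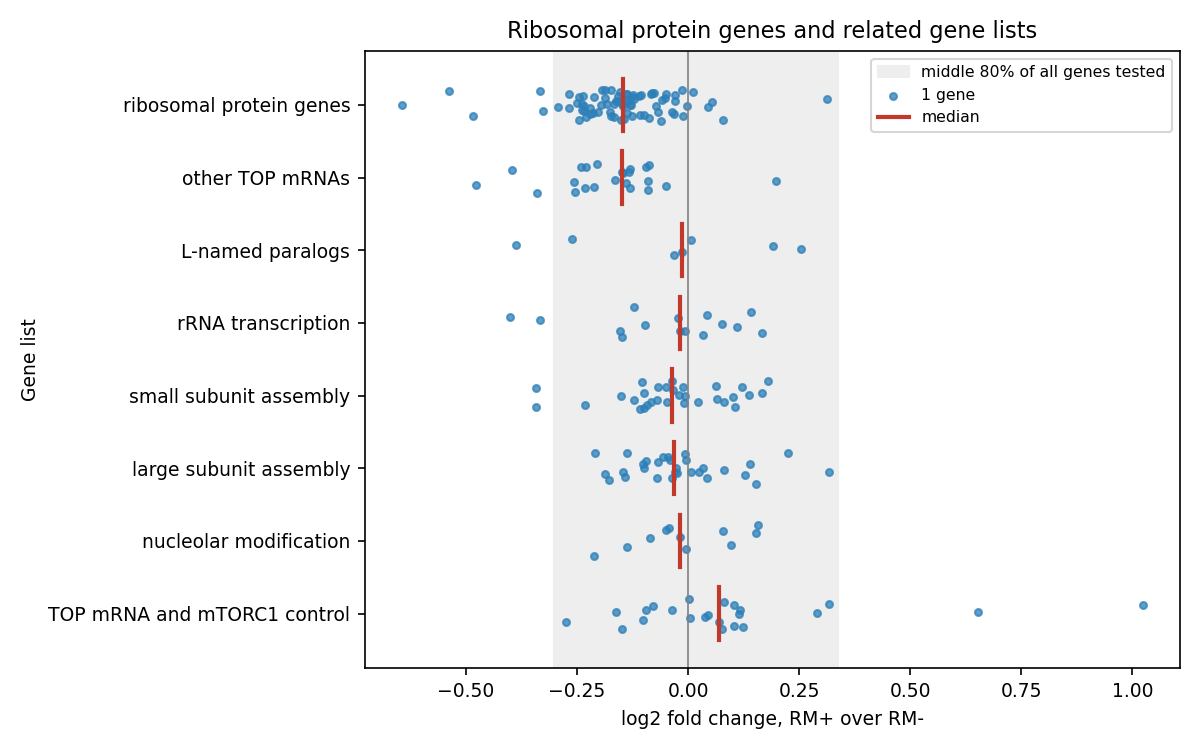
Log2 fold change (RM+ over RM-, horizontal axis) of the tested genes in each list (points, spread vertically for legibility), with the list's median as a red line and the middle 80% of all 17632 genes in grey. The medians of the ribosomal protein genes and of other TOP mRNAs are both -0.15, and those of the 4 lists of ribosome production lie between -0.04 and -0.02.

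The genes that make ribosomes, as opposed to forming them, lay closer to 0. Over the lists of rRNA transcription, small subunit assembly, large subunit assembly and nucleolar modification, 57 of 87 tested genes (65.5%) had a log2 fold change below 0, with a median of -0.03. Of all genes, 50.7% were below 0. limma called 2 lower and 0 higher without the block, against 0.794% and 1.46% of all genes. With the block it called 3 lower and 1 higher, neither above the 4.63% and 5.1% of all genes. Both genes called without the block are of the list of small subunit assembly. FBL (fibrillarin), which methylates ribosomal RNA, had 4879 and 5042 normalized counts in RM+ samples, against 6074 and 6507 in RM- samples (log2 fold change -0.34 ± 0.08, SE; limma, adjusted p = 0.0425, with 0.153 without RM+ replicate 1, 0.0925 without RM+ replicate 2, 0.190 without RM- replicate 2 and a range of 6.55e-06 to 0.420 over 16 alternatives). NOB1, the nuclease that makes the mature end of the small subunit RNA, had 1410 and 1547 in RM+ samples, against 1873 and 1874 in RM- samples (log2 fold change -0.34 ± 0.09, SE; limma, adjusted p = 0.0489, with 0.251 without RM+ replicate 1, 0.0624 without RM- replicate 1, 0.0984 without RM- replicate 2 and a range of 7.31e-05 to 0.432 over 16 alternatives).

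With the block, TAF1D and RRS1 joined them. TAF1D, a subunit of the factor that places RNA polymerase I on ribosomal DNA, had 797.6 and 788.6 normalized counts in RM+ samples, against 1088 and 918.7 in RM- samples (log2 fold change -0.33; limma, adjusted p = 0.11, and 0.00192 with the block). RRS1, which helps to bring RPL5, RPL11 and the 5S rRNA into the growing large subunit, had 1185 and 1248 in RM+ samples, against 1107 and 977.0 in RM- samples (log2 fold change 0.23; limma, adjusted p = 0.271, and 0.0460 with the block). Without the block, the lists of rRNA transcription, large subunit assembly and nucleolar modification had no gene past limma's test or lower by edgeR's. At an unadjusted p under 0.05 (limma), these lists had 2, 1 and 0 genes lower and, for large subunit assembly, 1 higher. Of all genes, 6.8% were lower and 7.68% higher at this level. Of the genes tested in these lists, 9 of 15, 20 of 30 and 7 of 11 had a log2 fold change below 0. Small subunit assembly had 21 of 31 below 0.

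Among genes that control TOP mRNAs and mTORC1, 7 of 23 tested had a log2 fold change below 0, with a median of 0.07. limma called 0 lower and 2 higher without the block, against 0.794% and 1.46% of all genes. With the block it called 1 lower and 3 higher, against 4.63% and 5.1%. Both genes called without the block are sestrins, which restrain mTORC1 and are known targets of p53. SESN2 had 372.9 and 360.5 normalized counts in RM+ samples, against 196.7 and 164.4 in RM- samples (log2 fold change 1.02 ± 0.14, SE; limma, adjusted p = 0.00102, and 1.49e-12 to 0.357 over 16 alternatives). SESN1 had 292.6 and 314.0 in RM+ samples, against 189.7 and 195.0 in RM- samples (log2 fold change 0.65 ± 0.14, SE; limma, adjusted p = 0.0160, 0.0665 without RM+ replicate 2, and 5.02e-05 to 0.386 over 16 alternatives). In both the RM+ samples lay close together and above both RM- samples.

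RPTOR, the subunit of mTORC1 that binds its substrates, had 1525 and 1540 normalized counts in RM+ samples, against 1254 and 1206 in RM- samples (log2 fold change 0.32; limma, adjusted p = 0.0698, and 0.000912 with the block). RPS6KB1, the kinase that phosphorylates RPS6, had 1027 and 1077 in RM+ samples, against 1237 and 1312 in RM- samples (log2 fold change -0.28; limma, adjusted p = 0.147, and 0.00861 with the block). LARP1, which binds the TOP motif, had 8576 and 8716 in RM+ samples and 7683 and 8744 in RM- samples (log2 fold change 0.08; limma, adjusted p = 0.771). MTOR, the kinase of the complex, had 1454 and 1495 in RM+ samples and 1365 and 1512 in RM- samples (log2 fold change 0.04; limma, adjusted p = 0.911). LARP1 and MTOR overlapped between the groups. They were chosen for their role with their values known.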

How the data were processed

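The authors sequenced poly(A) RNA, prepared with a kit that marks the strand, from A549 cells in 2D culture. Tools in the submitters' processing notes are DESeq2 1.24.0, featureCounts 1.6.3, HISAT2 2.1.0, Trimmomatic 0.38 and FastQC 0.11.7, with the build GRCh38. No source used here gives the annotation release or the strand setting of the counting. The authors deposited 1 signal per gene and sample, the read count divided by the sample's DESeq2 size factor. Their columns of the mean, log2 fold change, standard error, statistic, p-value and adjusted p-value hold their own comparison and were left aside.

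Taking the smallest value above 0 of a sample as 1 read gave back whole reads for 100% of values, to a tolerance of 1e-06. Replicate 1 and 2 of each group are batch 1 and 2 in the labels, which pairs the samples. Deviations of same-numbered samples from the group means had a correlation of 0.604 over the 77 genes and 0.168 over all 17632, across genes. The main test was limma-trend (limma 3.58.1, R 4.3.3) on log2(normalized count + 1), with all 4 samples, genes at 10 or more in at least 2 samples, two-sided and with Benjamini-Hochberg adjustment. It had 2 residual degrees of freedom and borrowed 14.8. edgeR 4.0.16 (quasi-likelihood, TMM) and DESeq2 1.42.0 on the recovered reads were alternatives, with other pseudocounts, filters and scalings, the batch as a block, and 1 sample left out in turn. edgeR with the block and the median without overlapped genes were added after the data were seen. The script was tested on simulated data.

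Named are the genes past the threshold, the 5 highest and lowest by fold change, the 3 highest and lowest by level, a set chosen by role, those whose batches differed most, the paralogs, FAU and RACK1, and up to 4 genes of each list with the smallest p, beside those marked as chosen from their values. The members and lists were chosen with earlier results of these data known. Coding length and overlaps came from GENCODE 29 and start windows from RefSeq (GRCh38.p14). Each sample held 18754356 to 20412283 reads. RPS10, RPL17 and RPL36A had low counts at this depth, which limits their values, and the reason was not tested. A few results under this rule are left out of the text.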

Additional observations from a re-analysis of the deposited data

How the results depend on the processing

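Of the main counts, medians and shares recomputed under alternatives, 72 values held and 18 moved, and none changed direction. The count of ribosomal protein genes lower in RM+ (1) was 0 with no filter, 0 with scaling to reads outside ribosomal protein and mitochondrial genes, 0 with cyclic loess, 5 with DESeq2, 24 with the replicate block and 25 with edgeR and the block. With 1 sample left out it lay between 0 and 4, and the count higher between 0 and 1, being 1 without RM- replicate 1. Over all genes, 258 were higher and 140 lower. With no filter these were 0 and 0, with the replicate block 900 and 817, with edgeR and the block 857 and 840, and with 1 sample left out 224 to 373 and 130 to 285. The median of the ribosomal protein genes lay between -0.20 and -0.09 with 1 sample left out, and the difference in their share of reads between -0.48 and -0.22 percentage points. CPM scaling put the median at -0.12, with 69 of 77 genes below 0. With 1 sample left out, the number below 0 lay between 60 (without RM+ replicate 1) and 75 (without RM+ replicate 2). For the 59 named genes no call changed direction, 20 results fell short of the threshold and 44 passed it under an alternative. Beyond the genes given with their blocked p or named as lower with the block, the replicate block changed the call of RPL24. Its adjusted p (limma) was 0.425 without the block and 0.0402 with it. The cause of these moves was not tested. With no filter 30843 genes were tested, and the trend of spread was also fitted over all of them. Low counts limit the values of RPL17, RPL36A and RPS10, for a reason that was not tested.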

Other observations

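The ribosomal protein pseudogenes belong in no comparison above. Of 583 pseudogenes in the table, 102 passed the filter and 69 of these had a log2 fold change below 0, with a median of -0.10. None passed the test without the block, and edgeR called 0 lower. At an unadjusted p under 0.05 with limma, 3 were lower and 1 higher, against 6.8% and 7.68% of all genes. With the block 0 were lower and 1 higher, against 4.63% and 5.1% of all genes. Together the pseudogenes held 0.116% and 0.125% of reads in RM+ samples and 0.126% and 0.127% in RM- samples. Reads of a pseudogene and its parent gene can be exchanged in alignment, and adding the pseudogenes to the 78 genes gave 4.04% and 4.32% in RM+ samples, against 4.46% and 4.61% in RM- samples. Of 9 tested kinases that share the RPS6K name, RPS6KB1 and RPS6KB2 of the mTORC1 list among them, 3 had a log2 fold change below 0, with a median of 0.11, and none passed the test without the block.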
